A study of Mus musculus with 6 samples.

Results

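The 31 genes described here were the interferon-gamma receptor chains and their signalling, the guanylate-binding proteins (GBPs), the immunity-related GTPases (IRGs), the immunoproteasome with its activator, and the proteins that trim, carry and load peptides for class I major histocompatibility molecules, with the nitric oxide synthase Nos2. They were chosen by name, with earlier results of these data known, and all 31 were found among the 35865 genes to which transcripts could be summed. RNA had been sequenced from macrophages sorted out of digested hearts of C57BL/6J mice, and the labels give donor haematopoietic progenitors as the source of these cells. The cells of the group Tet2 KO are labelled deficient in Tet2 and those of the group Tet2 WT wild type for it, with 3 libraries each. The study concerned Tet2-mutant clonal haematopoiesis, in mice that had not been conditioned, and the ageing heart. The labels used here give neither the sort gate, nor the deleted exons of Tet2, nor the age or sex of the mice, and nothing in them says whether each library is a separate animal. The spread behind every p-value is thus the spread among 3 libraries a group and may be technical.

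Interferon-gamma binds a receptor of 2 chains, IFNGR1 and IFNGR2, which carry the kinases JAK1 and JAK2. Genes that respond to it often hold a promoter element known as the gamma-activated site (GAS), and the induced factor IRF1 binds the interferon-stimulated response element (ISRE). The products include GBPs and IRGs, GTPases that coat and disrupt the vacuoles of intracellular microbes, and a set of proteasome subunits, transporters and chaperones that raise the supply of peptides to class I molecules. In macrophages this response is the classical route of activation by T cells and natural killer cells.

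The 6 upstream windows below are printed because they hold the letters of these elements, lie outside annotated exons and belong to genes of different roles. Each is the 250 bases before the RefSeq gene start (GRCm38.p6), read 5′ to 3′ on the strand of the gene, and capitals mark the letters TTCNNNGAA (GAS) or GAAANNGAAA (ISRE), found on either strand. Irf1 is a factor of the pathway, Socs1 its inhibitor, Gbp7 a GBP, and Igtp, Irgm2 and Tgtp2 are IRGs. The window of Irgm2 lies in an intron of the longer GENCODE model of that gene.
Irf1 (chr11:53769764-53770013, + strand): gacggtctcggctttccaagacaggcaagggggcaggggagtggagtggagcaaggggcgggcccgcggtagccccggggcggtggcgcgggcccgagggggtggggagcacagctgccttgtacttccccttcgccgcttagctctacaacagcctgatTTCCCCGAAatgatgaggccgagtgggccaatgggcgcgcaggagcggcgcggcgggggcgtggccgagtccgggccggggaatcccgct
Socs1 (chr16:10785537-10785786, - strand): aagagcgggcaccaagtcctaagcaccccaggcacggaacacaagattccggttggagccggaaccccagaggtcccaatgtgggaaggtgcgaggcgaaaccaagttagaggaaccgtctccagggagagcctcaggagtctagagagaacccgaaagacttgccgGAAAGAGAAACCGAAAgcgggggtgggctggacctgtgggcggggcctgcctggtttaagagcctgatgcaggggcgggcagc
Gbp7 (chr3:142530086-142530335, + strand): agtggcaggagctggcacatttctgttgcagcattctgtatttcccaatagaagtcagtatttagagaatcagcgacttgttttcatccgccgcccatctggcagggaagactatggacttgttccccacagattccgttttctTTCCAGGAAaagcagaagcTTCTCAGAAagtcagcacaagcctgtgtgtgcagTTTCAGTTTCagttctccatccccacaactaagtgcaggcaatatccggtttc
Igtp (chr11:58199306-58199555, + strand): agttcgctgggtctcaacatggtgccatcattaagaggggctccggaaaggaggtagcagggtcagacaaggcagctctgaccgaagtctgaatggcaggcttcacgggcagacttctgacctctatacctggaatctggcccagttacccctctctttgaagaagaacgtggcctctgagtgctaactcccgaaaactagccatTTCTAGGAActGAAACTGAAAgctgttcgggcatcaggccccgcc
Irgm2 (chr11:58214727-58214976, + strand): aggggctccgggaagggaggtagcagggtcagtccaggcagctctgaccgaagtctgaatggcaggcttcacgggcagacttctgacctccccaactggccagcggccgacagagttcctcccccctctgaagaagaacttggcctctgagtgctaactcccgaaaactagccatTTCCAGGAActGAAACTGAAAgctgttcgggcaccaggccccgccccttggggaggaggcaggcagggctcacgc
Tgtp2 (chr11:49064213-49064462, - strand): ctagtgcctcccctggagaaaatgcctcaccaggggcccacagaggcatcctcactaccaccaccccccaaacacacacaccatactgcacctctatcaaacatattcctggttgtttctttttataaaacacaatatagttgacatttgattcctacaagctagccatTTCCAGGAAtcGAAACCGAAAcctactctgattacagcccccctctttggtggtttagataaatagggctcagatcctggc

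Of the 31 genes, 23 had an entry in the promoter table. GAS letters stood upstream of 8 of these, ISRE letters upstream of 10, both upstream of 6 and at least 1 of them upstream of 12. Over the 27025 genes of the table the shares were 8.13% for GAS, 3.46% for ISRE, 0.459% for both and 11.1% for either. The 6 genes with both were Gbp5, Gbp7, Igtp, Irgm2, Tgtp1 and Tgtp2. In the last 4, the ISRE letters began 11 bases after the first letter of the GAS, leaving a gap of 2 bases on the same strand, as the stretches with 2 flanking bases on each side show.
Igtp: atTTCTAGGAActGAAACTGAAAgc
Irgm2: atTTCCAGGAActGAAACTGAAAgc
Tgtp1: atTTCCAGGAAtcGAAACTGAAAcc
Tgtp2: atTTCCAGGAAtcGAAACCGAAAcc
This arrangement occurred in 5 of 32851 windows, and the fifth gene was Gm12185. The windows of Igtp and Irgm2 shared an unbroken run of 55 bases. A match of letters is a description of the sequence and does not show that a factor binds there.

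**Figure D1:**
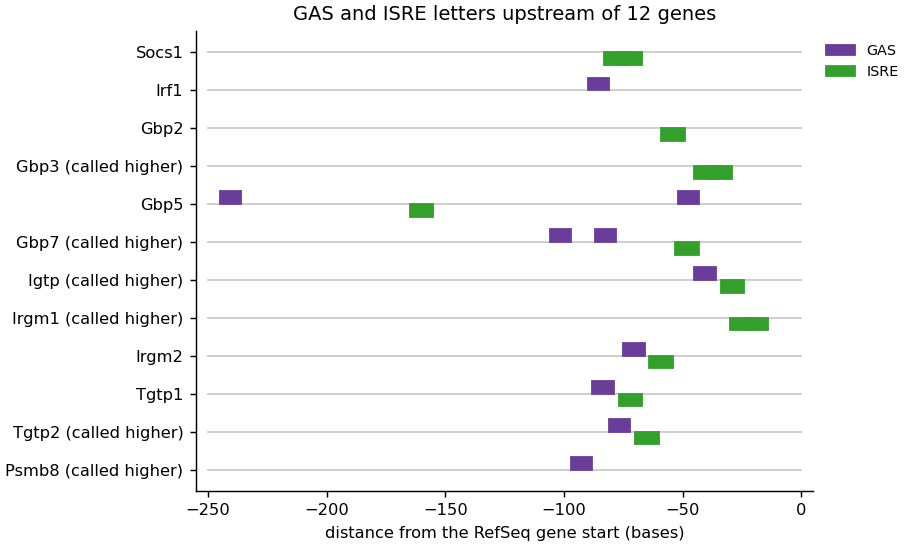
Positions of GAS letters (purple) and ISRE letters (green) in the 250 bases before the RefSeq start of the 12 genes that hold either, with distance in bases on the x axis. Igtp, Irgm2, Tgtp1 and Tgtp2 carry the same pair 11 bases apart, at 45 to 88 bases from the start for the GAS.

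The depth was 37349505 to 55771087 estimated counts per library, and all 31 genes passed the filter on low counts. Levels are given as CPM, counts per 1000000 counts after TMM scaling between libraries, and a gene was called at a Benjamini-Hochberg adjusted p under 0.05 over the 16386 genes tested by edgeR's quasi-likelihood test. Fold changes are log2 values of Tet2 KO against Tet2 WT with their SE. The targeted gene did not pass the test: Tet2 was at 81.2, 82.6 and 78.2 CPM in Tet2 KO against 57.5, 76.1 and 60.8 CPM in Tet2 WT (0.32 ± 0.14, edgeR adjusted p = 0.159). Its RNA therefore does not check the genotype labels, and Tet2 KO and Tet2 WT below mean the libraries so labelled. The libraries differed in markers of other cells: 12 of 12 fibroblast markers were lower in Tet2 KO (median log2 fold change -3.01), with sums of 2125 to 4222 CPM against 15062 to 27897 CPM, and 13 of 16 macrophage markers were higher (median 0.75), with sums of 39252 to 48070 CPM against 22820 to 31193 CPM. Of 8 endothelial markers 1, Tek, was lower and 5 had values above 0, of 3 tested B cell markers 1, Cd79b, was higher, and the only neutrophil marker tested, Csf3r, was higher, while Pax5, S100a8, S100a9 and Ly6g were each at most 0.326 CPM. In bulk RNA, a different share of a cell type and a different amount of RNA per cell cannot be told apart. The fibroblast and macrophage marker sums did not overlap between the genotypes, so they cannot be told apart from genotype in any comparison below. Their part in the results was not tested.

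With TMM scaling, 14 of the 31 genes (45.2%) rose in Tet2 KO, where 6.11% of all tested genes were called higher, while 0 of 31 were called higher by edgeR (0 at an unadjusted p under 0.05, beside 0.104% of all tested genes called) with each library scaled to the macrophage genes Adgre1 and Csf1r in place of TMM. None of the 31 was called lower by edgeR or limma voom with TMM scaling or by DESeq2 with its own size factors, and 0 were lower at an unadjusted p under 0.05 in any of the 3, beside 10.1% of all tested genes called lower by edgeR. The median log2 fold change of the 31 was 0.48, against 0.00 over all tested genes, and 30 of the 31 values were above 0, as were 8227 of the 16386. Every Tet2 KO library was above every Tet2 WT library for 20 of the 31 (64.5%), and for 16.4% of all tested genes. DESeq2 called 16 of the 31 higher, adding Irf1 and Nlrc5, and 8.84% of all tested genes higher. The risen genes comprised Ifngr2, 4 of 8 GBPs, 4 of 7 IRGs, 3 of 5 immunoproteasome and activator genes and 2 of 5 genes of peptide transport, trimming and control.

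Leaving out a pair of libraries, or adding a covariate, both chosen after seeing the data, changed the count by more than 1.5 times. So did some planned settings, with 9 calls each: limma on log2 of TPM plus 1 or 0.1, and leaving out Tet2 KO replicate 3 or Tet2 WT replicate 1. With replicate 1 of both genotypes left out, edgeR called 7 of the 31 genes (Gbp9, Tap1, Irgm1, Iigp1, Igtp, Ifi47 and Tgtp2). With the fibroblast marker level of each library as a covariate, edgeR called 0 of the 31 and 0 of all genes, with 3 of the 31 and 1726 of all genes at an unadjusted p under 0.05, and the fibroblast levels of the genotypes do not overlap. On a per-length scale, limma on log2(TPM + 1) called 9 of the 31 higher, without Ifngr2, Gbp3, Psmb9, Psme1 and Tap2, and there 384 of all 2314 called genes were higher, where edgeR with TMM had 1001 of 2653. Leaving out 1 library at a time gave 9 to 14 calls, with 9 when either Tet2 KO replicate 3 or Tet2 WT replicate 1 was left out. Of the 14 calls, 9 held in each of the 6 fits that left out 1 library: Gbp7, Gbp9, Igtp, Irgm1, Ifi47, Tgtp2, Psmb8, Psmb9 and Tap1.

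**Figure D2:**
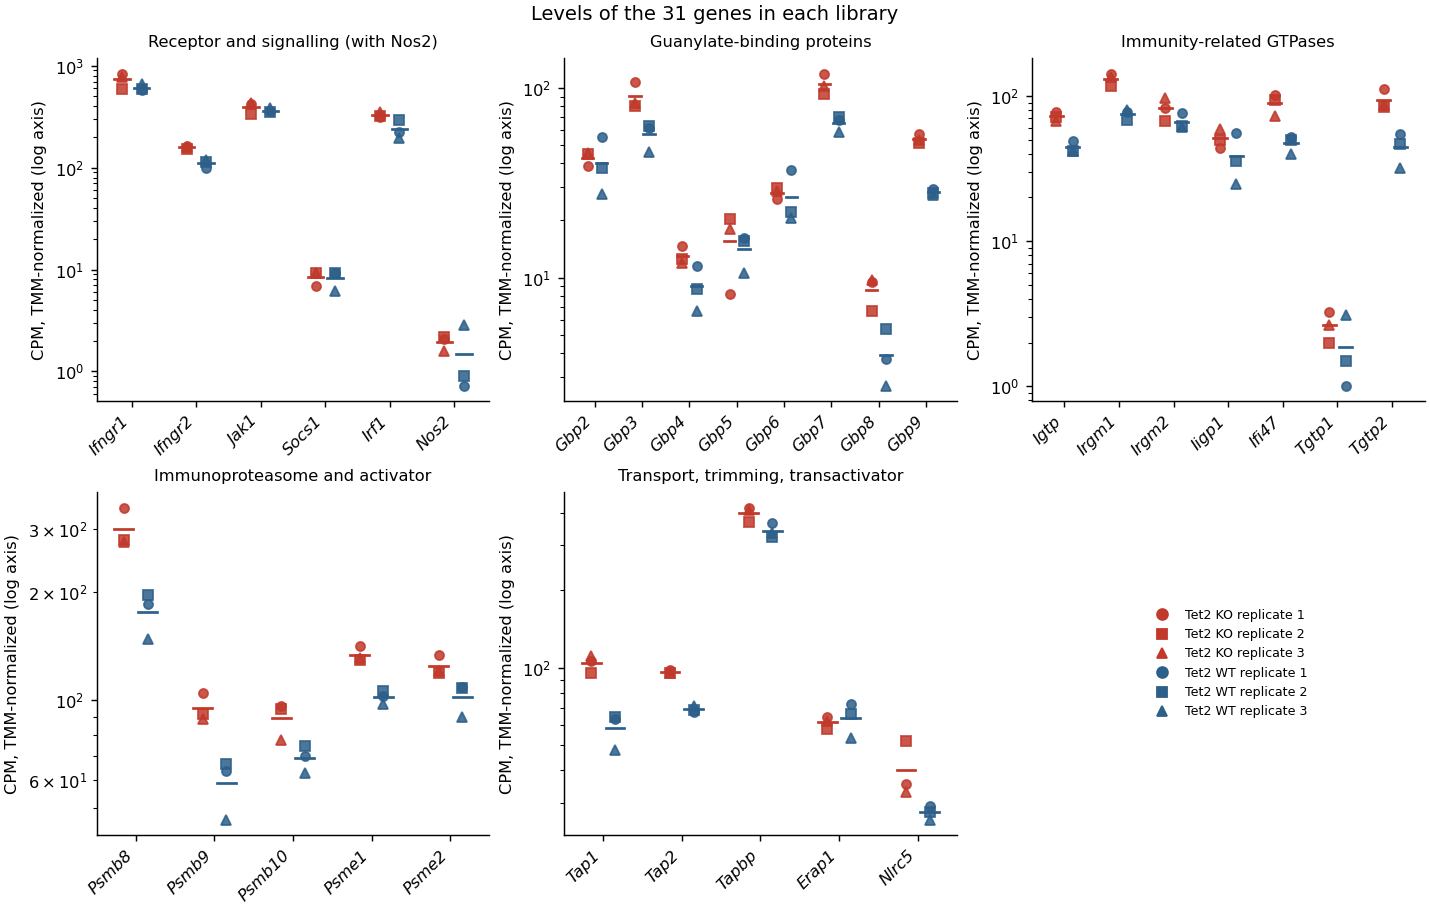
CPM of the 31 genes in each library on log axes, grouped by role, with a bar at each group mean. Tet2 KO libraries (red) lie above all Tet2 WT libraries (blue) for 20 of the 31 genes, and for 16.4% of all tested genes. Gbp9 and Tap2 are among the 20, with little spread, and the groups overlap for genes such as Gbp2, Gbp5, Iigp1 and Erap1.

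Among the receptor and signalling genes, 1 of 5 rose with TMM scaling, the receptor chain Ifngr2, beside 6.11% of all tested genes. With scaling to Adgre1 and Csf1r 2 of 5 were lower and 0 higher, beside 50% of all tested genes lower and 0.104% higher. Ifngr2, whose chain brings JAK2 to the receptor, was at 163, 151 and 159.9 CPM in Tet2 KO against 98.9, 113 and 119 CPM in Tet2 WT. The lowest Tet2 KO library lay well above the highest Tet2 WT library, with 158 ± 6.10 against 110.5 ± 10.55 CPM (SD, n = 3 each), a log2 difference of 0.52 ± 0.12 by edgeR (adjusted p = 0.018). The call was lost when Tet2 KO replicate 3 or Tet2 WT replicate 1 was left out (edgeR adjusted p up to 0.0739). Ifngr1, the ligand-binding chain and the most abundant of the 31 genes per length, was at 837, 589.9 and 784 CPM in Tet2 KO against 573, 592 and 669.7 CPM in Tet2 WT (0.27 ± 0.16, edgeR adjusted p = 0.315). Its Tet2 KO replicate 2 sat among the Tet2 WT libraries. Jak1, the kinase bound to IFNGR1, was at 422, 334 and 428 CPM in Tet2 KO against 361, 349 and 382 CPM in Tet2 WT, and its groups overlapped (0.12 ± 0.14, edgeR adjusted p = 0.638).

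Irf1, which is itself induced by interferon-gamma and drives ISRE genes, stood at 318, 319 and 349.8 CPM in Tet2 KO against 225, 294 and 194 CPM in Tet2 WT. All Tet2 KO libraries were above all Tet2 WT libraries, but the difference of 0.47 ± 0.16 did not pass edgeR's test (adjusted p = 0.0823), although DESeq2 called it (adjusted p = 0.0366). Socs1, a feedback inhibitor that blocks the JAK kinases, was low, at 6.91, 9.28 and 9.25 CPM in Tet2 KO against 9.18, 9.29 and 6.12 CPM in Tet2 WT. Its groups overlapped (0.05 ± 0.25, edgeR adjusted p = 0.924), with a negative sign in limma fits on log2 TPM and in 3 of the fits that left out 1 library. Irf1 and Socs1 both carry motif letters in the windows printed above, and neither was called by edgeR.

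Of the 8 GBPs, 4 rose with TMM scaling, Gbp3, Gbp7, Gbp8 and Gbp9, where 6.11% of all tested genes were called higher. With scaling to Adgre1 and Csf1r, 0 of 8 were called in either direction (2 were lower at an unadjusted p under 0.05). That scaling called 50.1% of all tested genes, 50% lower. GBPs are large GTPases that assemble on pathogen vacuoles and on cytosolic bacteria, and in the mouse their genes form 2 clusters. Gbp5, Gbp7, Gbp3 and Gbp2 lie on chromosome 3 (GRCm38, 142493978 to 142638008, plus strand), and Gbp8, Gbp9, Gbp4 and Gbp6 on chromosome 5 (105014150 to 105293698, minus strand). Each cluster held 2 risen and 2 uncalled genes, with median log2 fold changes of 0.41 on chromosome 3 and 0.73 on chromosome 5. Summed over the family, TPM (transcripts per 1000000 transcripts, a per-length level) was 187, 149 and 171 in Tet2 KO and 143, 123 and 107 in Tet2 WT, a ratio of means of 1.35. The groups of the sum did not overlap, and the highest Tet2 WT library was replicate 1.

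Gbp9 showed the steadiest rise of the family, at 56.9, 51.3 and 53.0 CPM in Tet2 KO against 29.4, 28.0 and 27.2 CPM in Tet2 WT. The Tet2 WT values lay close together, and the means were 53.7 ± 2.88 against 28.2 ± 1.08 CPM (SD, n = 3 each), a 1.905-fold difference (log2 0.93 ± 0.12, edgeR adjusted p = 0.000896). Gbp7 was at 119, 92.7 and 102 CPM in Tet2 KO against 68.1, 70.3 and 58.4 CPM in Tet2 WT, with every Tet2 KO library above the Tet2 WT libraries (0.67 ± 0.14, edgeR adjusted p = 0.00981). Its neighbour Gbp3 was at 108, 79.9 and 83.6 CPM in Tet2 KO against 61.4, 63.3 and 45.85 CPM in Tet2 WT, and its groups were separate too (0.67 ± 0.17, edgeR adjusted p = 0.02415). Gbp8 had the largest change of the 31 with TMM scaling (log2 1.13 ± 0.31, edgeR adjusted p = 0.0362), from low levels of 9.45, 6.63 and 9.67 CPM in Tet2 KO against 3.72, 5.36 and 2.69 CPM in Tet2 WT. The calls of Gbp3 and Gbp8 were each lost in 4 of the 6 fits without 1 library (without replicate 1 or 3 of either genotype), with edgeR adjusted p up to 0.0743 and 0.122.

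The other 4 GBPs did not pass the test. Gbp4 was at 14.7, 12.5 and 11.9 CPM in Tet2 KO against 11.6, 8.70 and 6.65 CPM in Tet2 WT, where Tet2 KO libraries were higher throughout (0.54 ± 0.24, edgeR adjusted p = 0.171). Gbp2 was at 38.9, 44.8 and 45.1 CPM in Tet2 KO against 54.9, 37.9 and 27.4 CPM in Tet2 WT (0.10 ± 0.23, edgeR adjusted p = 0.825). Gbp5, which promotes inflammasome assembly, was at 8.18, 20.4 and 18.0 CPM in Tet2 KO against 16.2, 15.6 and 10.5 CPM in Tet2 WT (0.14 ± 0.32, edgeR adjusted p = 0.828). Gbp6 was at 25.9, 29.6 and 28.6 CPM in Tet2 KO against 36.7, 22.2 and 20.7 CPM in Tet2 WT (0.08 ± 0.22, edgeR adjusted p = 0.859). For Gbp2 and Gbp6 the highest of the 6 libraries was Tet2 WT replicate 1, and for Gbp5 the lowest was Tet2 KO replicate 1, so the groups of these 3 genes overlapped. Without Tet2 WT replicate 1 their log2 fold changes were 0.41, 0.40 and 0.27, with edgeR adjusted p of 0.25, 0.208 and 0.775, for Gbp2, Gbp6 and Gbp5 in turn.

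GBP values rest in part on how reads of similar copies were divided. Of the 31-base stretches of Gbp6 transcripts, 74.2% also occur in another gene, mostly Gm43302, which was listed at 0 in every library, and Gbp10, which was at most 0.409 CPM. The shared part was 31.1% for Gbp8, 18.3% for Gbp9, 14.7% for Gbp7 and 14.5% for Gbp4. The gene models of Gbp8, Gbp9 and Gbp4 overlap on the same strand, so their separate values are uncertain.

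Of the 7 IRGs, 4 rose with TMM scaling, Igtp, Irgm1, Ifi47 and Tgtp2, beside 6.11% of all tested genes called higher. With scaling to Adgre1 and Csf1r, 0 of 7 were called in either direction (1 was lower at an unadjusted p under 0.05). Of all tested genes, 50.1% were called with that scaling, 50% lower. IRGs fall into regulators that guard host membranes (the IRGM proteins Irgm1, Irgm2 and Igtp, also known as Irgm3) and effectors that attack vacuoles (Iigp1, Ifi47, Tgtp1 and Tgtp2). Summed TPM over the family was 367, 303 and 320 in Tet2 KO and 249, 203 and 205 in Tet2 WT, a ratio of 1.51. No Tet2 WT library reached the lowest Tet2 KO library.

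Of the regulators, Irgm1 (chromosome 11, 48861968 to 48871683, minus strand) was the most abundant per length, with 142.5, 118 and 136 CPM in Tet2 KO against 77.6, 68.6 and 80.65 CPM in Tet2 WT. The means were 132 ± 12.8 against 75.6 ± 6.26 CPM (SD, n = 3 each), a 1.745-fold difference with clearly separate groups (log2 0.80 ± 0.13, edgeR adjusted p = 0.00264). Igtp was at 78.1, 71.9 and 67.3 CPM in Tet2 KO against 49.2, 41.9 and 42.1 CPM in Tet2 WT, again without overlap (0.71 ± 0.13, edgeR adjusted p = 0.00529). Irgm2 was at 82.3, 67.6 and 96.4 CPM in Tet2 KO against 76.3, 62.4 and 61.4 CPM in Tet2 WT, and here Tet2 WT replicate 1 lay above Tet2 KO replicate 2 (0.30 ± 0.16, edgeR adjusted p = 0.255). The gene models of Igtp (chromosome 11, 58199556 to 58207591) and Irgm2 (58199618 to 58222782) overlap on the plus strand, and they share the upstream run of 55 bases described above. The ratio of Igtp to Irgm2 CPM, a pair chosen after its values were seen, was 0.949, 1.06 and 0.698 in Tet2 KO and 0.645, 0.672 and 0.685 in Tet2 WT. It was nearly constant in Tet2 WT, and Tet2 KO replicate 3 lay close to those libraries.

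Among the effectors, Ifi47 was at 101, 93.7 and 73.15 CPM in Tet2 KO against 52.6, 50.0 and 40.1 CPM in Tet2 WT. Its groups were well apart (0.91 ± 0.16, edgeR adjusted p = 0.00469). Tgtp2 was at 111, 84.2 and 87.1 CPM in Tet2 KO against 54.9, 46.5 and 32.1 CPM in Tet2 WT, with all Tet2 KO libraries above the Tet2 WT libraries (1.08 ± 0.20, edgeR adjusted p = 0.00622). Its near copy Tgtp1 was listed at only 3.255, 1.98 and 2.66 CPM in Tet2 KO against 1.01, 1.49 and 3.11 CPM in Tet2 WT, with overlapping groups (0.49 ± 0.46, edgeR adjusted p = 0.555). Tgtp1 and Tgtp2 share 84.4% and 90.5% of their 31-base stretches with other genes, nearly all with each other, so the division of reads between them is uncertain. Their sum, which does not depend on that division, was 114, 86.2 and 89.8 CPM in Tet2 KO against 55.9, 48.0 and 35.2 CPM in Tet2 WT, a log2 ratio of means of 1.06. Iigp1, which accumulates on the vacuole of Toxoplasma, was at 43.9, 49.7 and 59.5 CPM in Tet2 KO against 55.7, 35.6 and 24.8 CPM in Tet2 WT. Tet2 WT replicate 1 was its second highest library, and its change (0.40 ± 0.27, edgeR adjusted p = 0.378) was larger without that library (0.77, edgeR adjusted p = 0.0628).

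With TMM scaling, all 5 genes of the immunoproteasome and its activator had separate groups, Tet2 KO higher, as had 16.4% of all tested genes. Of the 5, 3 rose, Psmb8, Psmb9 and Psme1, beside 6.11% of all tested genes. With scaling to Adgre1 and Csf1r 0 were higher and 1, Psme2, was lower, where 50% of all tested genes were lower. Psmb8, Psmb9 and Psmb10 encode the inducible catalytic subunits that replace those of the standard proteasome (Psmb5, Psmb6 and Psmb7) and favour peptides with ends that fit class I grooves. Psme1 and Psme2 encode the subunits of the PA28 ring that opens the proteasome. Psmb8 was at 344, 280.0 and 276 CPM in Tet2 KO against 186, 197 and 148 CPM in Tet2 WT, with means of 300.3 ± 38.3 against 177 ± 25.6 CPM (SD, n = 3 each). The log2 difference was 0.76 ± 0.15, edgeR adjusted p = 0.008365. Psmb9 was at 105, 91.7 and 88.5 CPM in Tet2 KO against 63.6, 66.65 and 46.5 CPM in Tet2 WT (0.69 ± 0.16, edgeR adjusted p = 0.0157). For both genes Tet2 WT replicate 3 was lowest. Psmb10 was at 96.65, 94.5 and 77.5 CPM in Tet2 KO against 69.95, 74.8 and 62.95 CPM in Tet2 WT, a narrower gap that did not pass the test (0.37 ± 0.13, edgeR adjusted p = 0.0951).

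Of the PA28 genes, Psme1 was at 142, 129 and 131.5 CPM in Tet2 KO against 103, 106 and 97.8 CPM in Tet2 WT (0.39 ± 0.11, edgeR adjusted p = 0.0415), and its call was lost in 5 of the 6 fits without 1 library, all but the fit without Tet2 KO replicate 2 (edgeR adjusted p up to 0.123). Psme2 was at 134, 119.6 and 121 CPM in Tet2 KO against 109, 108 and 90.0 CPM in Tet2 WT (0.28 ± 0.13, edgeR adjusted p = 0.176). Psme2 shares 33.5% of its 31-base stretches with other genes, chiefly the copy Psme2b, and the sum of both was 162, 146 and 147 CPM in Tet2 KO against 123, 129 and 106 CPM in Tet2 WT.

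The standard catalytic subunits gave no such separation. Psmb5 was at 102, 91.85 and 82.2 CPM in Tet2 KO against 90.9, 89.5 and 86.1 CPM in Tet2 WT (0.05 ± 0.12, edgeR adjusted p = 0.838). Psmb6 and Psmb7 had log2 fold changes of 0.18 ± 0.13 and 0.03 ± 0.14 (edgeR adjusted p = 0.427 and 0.91). Of 17 genes of the standard proteasome and its assembly, 0 were called by edgeR, DESeq2 or limma voom. In each of these fits 2 were higher at an unadjusted p under 0.05. With edgeR and TMM scaling their median was 0.07, with a range of -0.13 to 0.31. Scaling to Adgre1 and Csf1r called 17 of 17 lower, with a median of -0.74. That scaling called 50% of all tested genes lower, with a median of -0.78. A comparison within a library needs no scaling between libraries, but it does not remove differences in the mix of cells, whose part was not tested. The TPM ratio of Psmb8 to Psmb5 was 2.61, 2.45 and 2.60 in Tet2 KO and 1.59, 1.70 and 1.35 in Tet2 WT, a log2 difference of 0.73 ± 0.10 (SE). Psmb9 over Psmb6 was 0.330, 0.367 and 0.349 against 0.260, 0.285 and 0.199 (log2 difference 0.51 ± 0.16). Psmb10 over Psmb7 was 2.46, 2.29 and 2.12 against 1.775, 1.70 and 1.95 (log2 difference 0.34 ± 0.09). Each ratio was higher in 3 of 3 Tet2 KO libraries than in any Tet2 WT library, and each gave p = 0.1 in a two-sided exact permutation test (0.1 adjusted over the 3 ratios), the smallest that 20 assignments allow.

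**Figure D3:**
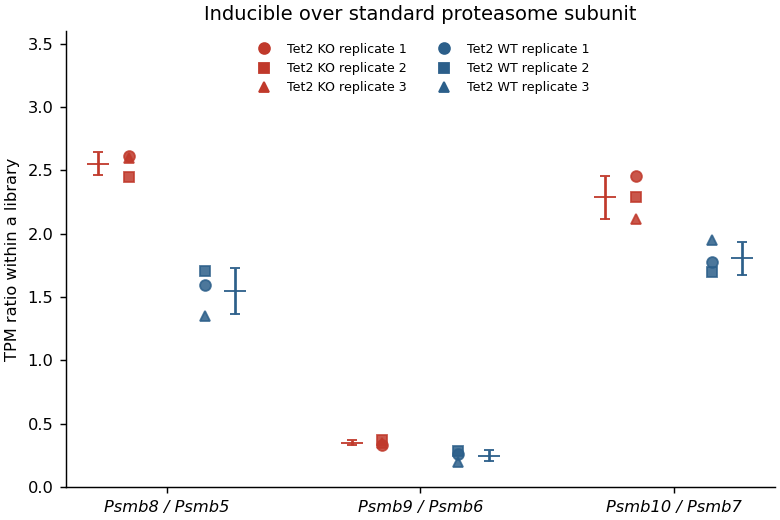
Ratio of the TPM of each inducible proteasome subunit to that of its standard counterpart in each library, with mean and SD beside the points (n = 3 each). All 3 ratios are higher in every Tet2 KO library than in any Tet2 WT library, and Psmb8 over Psmb5 shows the widest gap, 2.55 against 1.55 on average.

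Of the 5 genes of peptide transport, trimming and control, 2 rose with TMM scaling, Tap1 and Tap2, beside 6.11% of all tested genes. With scaling to Adgre1 and Csf1r 0 were higher and 2, Tapbp and Erap1, were lower, beside 50% of all tested genes lower. TAP1 and TAP2 form the transporter that moves peptides into the endoplasmic reticulum, tapasin (Tapbp) tethers class I molecules to it, ERAP1 trims the peptides, and NLRC5 is a transactivator of class I genes. Tap1 was at 107, 95.8 and 111 CPM in Tet2 KO against 63.1, 64.6 and 48.1 CPM in Tet2 WT, with means of 104.5 ± 7.87 against 58.6 ± 9.14 CPM (SD, n = 3 each). This was a log2 difference of 0.84 ± 0.15, edgeR adjusted p = 0.00421. Tap2 was at 98.2, 95.7 and 95.1 CPM in Tet2 KO against 67.2, 68.8 and 70.9 CPM in Tet2 WT, very even within each genotype (0.48 ± 0.11, edgeR adjusted p = 0.01525), and its call was lost without Tet2 KO replicate 3 or Tet2 WT replicate 1 (edgeR adjusted p up to 0.0616). Tap1, Tap2, Psmb8 and Psmb9, all risen, lie side by side on chromosome 17 between 34181987 and 34216321. Psmb9 (minus strand) and Tap1 (plus strand) overlap at their 5′ ends, and without a stated strand setting reads from that overlap cannot be told apart.

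Tapbp, at 418, 367 and 410.4 CPM in Tet2 KO against 366, 323 and 334 CPM in Tet2 WT, had its lowest Tet2 KO library level with its highest Tet2 WT library (0.23 ± 0.12, edgeR adjusted p = 0.272). Nlrc5 was at 35.4, 52.0 and 32.8 CPM in Tet2 KO against 29.1, 27.6 and 25.75 CPM in Tet2 WT, where Tet2 KO replicate 2 stood highest. It did not pass edgeR's test (0.54 ± 0.19, adjusted p = 0.0785) and was called by DESeq2 (adjusted p = 0.0449). Erap1 was the one gene of the 31 with a log2 fold change below 0, at 64.3, 57.95 and 62.3 CPM in Tet2 KO against 72.5, 66.3 and 53.4 CPM in Tet2 WT (-0.06 ± 0.14, edgeR adjusted p = 0.834), and its sign turned without Tet2 WT replicate 1 (0.05). Nos2, which makes nitric oxide in classically activated mouse macrophages, was near the bottom of detection at 2.07, 2.20 and 1.59 CPM in Tet2 KO against 0.725, 0.899 and 2.855 CPM in Tet2 WT. Its highest and lowest values both came from Tet2 WT libraries (0.39 ± 0.54, edgeR adjusted p = 0.7055).

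**Figure D4:**
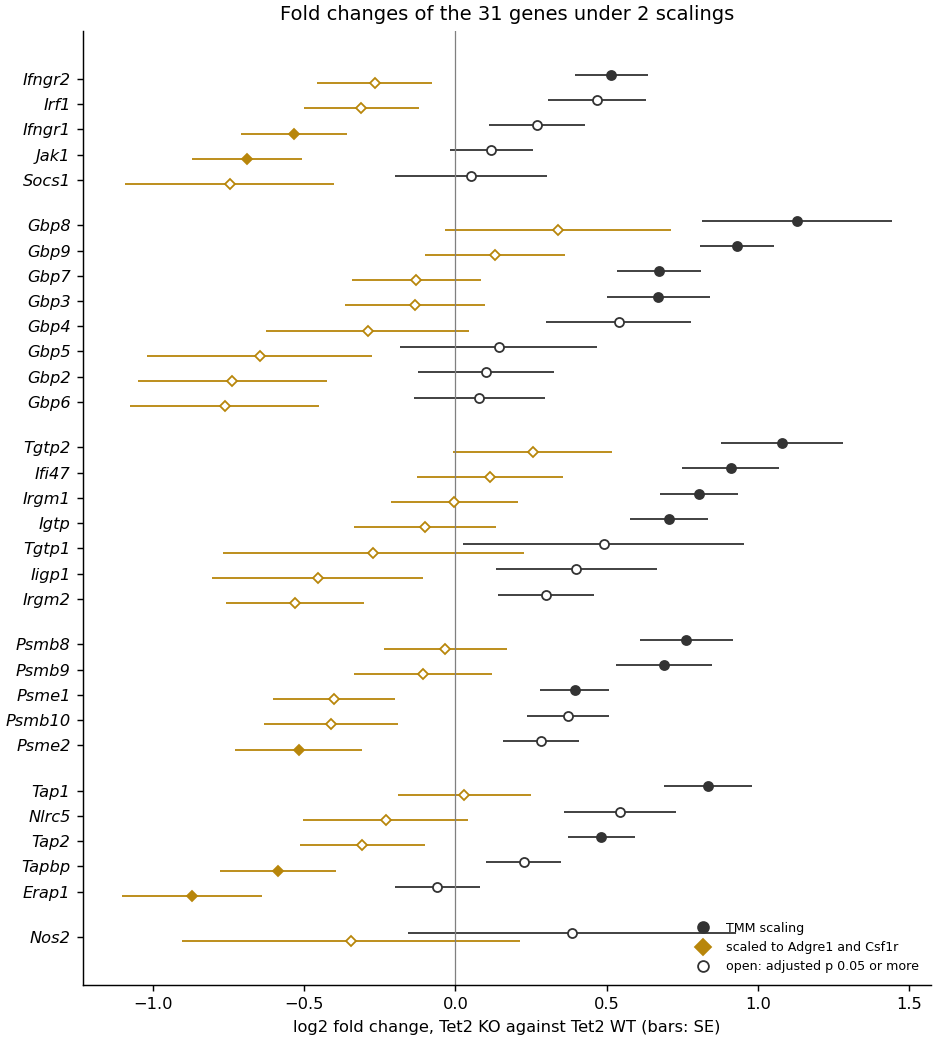
Log2 fold changes (Tet2 KO against Tet2 WT, bars SE) of the 31 genes, ordered by size within each role, with TMM scaling (circles) and with scaling to Adgre1 and Csf1r (diamonds); filled symbols passed edgeR's adjusted p of 0.05. The 14 filled circles lie between 0.39 and 1.13, and the diamonds centre on -0.31, with 5 filled on the lower side. Of all tested genes, 6.11% were called higher with TMM scaling and 50% lower with scaling to Adgre1 and Csf1r.

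Relative to the 2 macrophage genes, 0 of the 31 genes were higher and 5 were lower. Adgre1 (F4/80) was at 1389, 1157 and 1446 CPM in Tet2 KO against 666, 912 and 763 CPM in Tet2 WT (0.77 ± 0.16, edgeR adjusted p = 0.0112), and Csf1r, the receptor for macrophage colony-stimulating factor, was at 3289, 2961 and 3528 CPM in Tet2 KO against 1482, 2130.0 and 2104 CPM in Tet2 WT (0.77 ± 0.18, edgeR adjusted p = 0.0167). Leaving out Tet2 KO replicate 3 ended both calls (edgeR adjusted p = 0.0594 and 0.0834). Scaling each library to these genes moved the median of all tested genes to -0.78 and called 50.1% of them, 50% lower and 0.104% higher. Against that background, 5 of the 31 (16.1%) were lower and 26 were not called, with a median of -0.31. The count of lower genes was 2 (Erap1 and Jak1) without Tet2 KO replicate 3, 3 calls without Tet2 WT replicate 1 (Erap1 and Jak1 lower, Tgtp2 higher) and 8 without Tet2 WT replicate 2.

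The 5 lower genes were Erap1 (-0.87 ± 0.23, edgeR adjusted p = 0.00591), Jak1 (-0.69 ± 0.18, edgeR adjusted p = 0.00582), Tapbp (-0.59 ± 0.19, edgeR adjusted p = 0.0184), Ifngr1 (-0.53 ± 0.18, edgeR adjusted p = 0.0189) and Psme2 (-0.52 ± 0.21, edgeR adjusted p = 0.0470). Several risen genes lay near 0 on this scale: Irgm1 differed from the 2 references by -0.00 ± 0.21, Psmb8 by -0.03 ± 0.20, Tap1 by 0.03 ± 0.22, Igtp by -0.10 ± 0.23 and Ifi47 by 0.11 ± 0.24, where the SE leaves room for differences of either sign. Gbp8, Tgtp2 and Gbp9 had the highest values on this scale, 0.34 ± 0.37, 0.26 ± 0.26 and 0.13 ± 0.23, and none passed the test (edgeR adjusted p = 0.435, 0.405 and 0.633). The remaining 18 genes lay between -0.76 (Gbp6) and -0.11 (Psmb9).

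By family, the mean log2 CPM minus that of Adgre1 and Csf1r was -5.29, -5.33 and -5.47 in Tet2 KO and -4.89, -5.535 and -5.41 in Tet2 WT for the IRGs, a difference of -0.08 ± 0.21 (SE). For the GBPs it was -6.11, -5.90 and -6.12 against -5.29, -5.93 and -6.20, a difference of -0.24 ± 0.28. For the immunoproteasome and activator it was -3.87, -3.83 and -4.18 against -3.33, -3.77 and -3.94, a difference of -0.28 ± 0.21. These 3 families overlapped between genotypes, and Tet2 WT replicate 1 was the highest library in each. That library also had the lowest levels of the subtracted genes, 666 CPM for Adgre1 and 1482 CPM for Csf1r. For transport, trimming and control the difference was -0.38 ± 0.21, and for receptor and signalling genes -0.50 ± 0.13. Both had every Tet2 KO library below every Tet2 WT library. The median log2 fold change of all tested genes was lower than either, -0.78 by edgeR with the same scaling. How often groups separate on this scale over all genes was not counted.

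**Figure D5:**
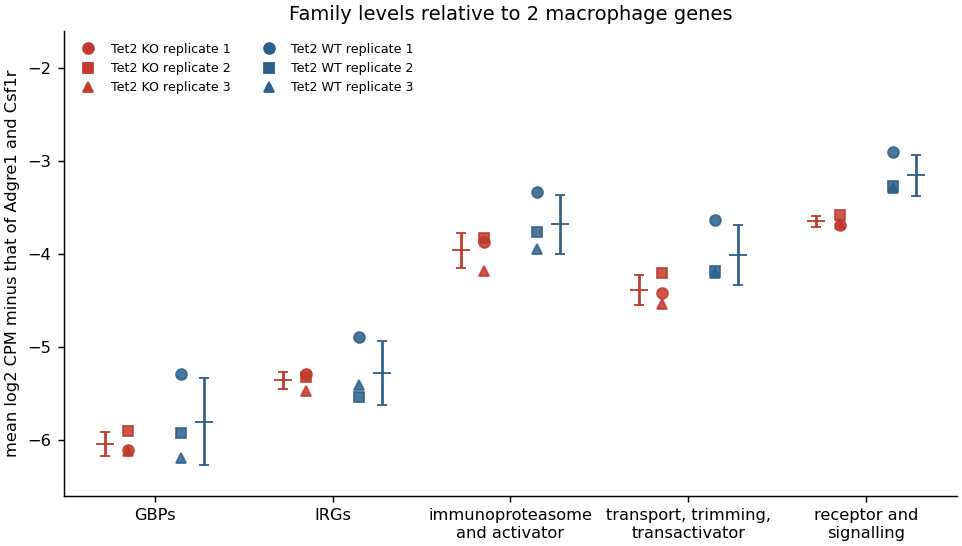
Mean log2 CPM of each family minus the mean log2 CPM of Adgre1 and Csf1r in each library, with mean and SD beside the points (n = 3 each). Tet2 WT replicate 1, the library with the lowest Adgre1 and Csf1r CPM, is the highest point in all 5 families. The groups are separate for transport, trimming and control and for receptor and signalling genes. All tested genes had a median log2 fold change of -0.78 by edgeR with this scaling.

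The genes spanned a wide range per length. In Tet2 WT, Ifngr1 led with 472.5 ± 50.4 TPM, followed by Psmb8 (272 ± 30.1 TPM), Irf1 (233 ± 33.9 TPM), Psme2 (221 ± 17.4 TPM) and Tapbp (200.1 ± 15.6 TPM), and the gaps between neighbours from Psmb8 to Tapbp were smaller than the summed SDs of the pair. The IRGs were led by Irgm1 (53.3 ± 5.89 TPM) and Ifi47 (44.9 ± 4.29 TPM), and the GBPs by Gbp3 (36.8 ± 3.96 TPM) and Gbp7 (29.2 ± 1.63 TPM). Gbp8 (2.23 ± 0.663 TPM), Tgtp1 (1.64 ± 0.723 TPM) and Nos2 (0.562 ± 0.461 TPM) were lowest. The first 6 places were held by the same genes, in the same order, in Tet2 KO, with Ifngr1 at 509 ± 95.7 TPM and Psmb8 at 414 ± 55.8 TPM.

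Of the other genes of the pathway, 22 of a list of 24 were tested. With TMM scaling edgeR called 9 higher (40.9% of the tested, median 0.60) and 0 lower, where 6.11% of all tested genes were higher. At an unadjusted p under 0.05, edgeR and DESeq2 found 0 lower and limma voom 1. When scaled to Adgre1 and Csf1r, 0 were higher and 4 lower, where 50% of all tested genes were lower. The IRG-like gene 9930111J21Rik1 (0.86 ± 0.15), Ciita, the class II transactivator (0.73 ± 0.15), and 9930111J21Rik2 were among those that rose (edgeR adjusted p = 0.00478, 0.00962 and 0.0134). The call of 9930111J21Rik2 was lost when Tet2 KO replicate 3, Tet2 WT replicate 1 or Tet2 WT replicate 3 was left out (edgeR adjusted p up to 0.0622). The ligand Ifng was listed at 0 in all libraries but Tet2 WT replicate 3, where it was 0.0553 CPM. Markers of T and NK cells, its main sources, were low in both groups, with 12 genes summing to 3.87 to 6.17 CPM in Tet2 KO and 5.40 to 6.42 CPM in Tet2 WT, Trbc2 and Ncr1 at 0 throughout and Cd3e at most 0.136 CPM. Of 10 partners in class I loading, H2-K1 (0.58 ± 0.15) and H2-D1 (0.80 ± 0.18), the class I heavy chains, rose with TMM scaling (edgeR adjusted p = 0.0237 and 0.0138). When scaled to Adgre1 and Csf1r, 8 of 10 were lower, with a median of -0.60 beside -0.78 for all tested genes. The H2-K1 call was lost in 4 of the 6 fits that left out 1 library (replicate 1 or 3 of either genotype, edgeR adjusted p up to 0.0931), and the H2-D1 call in 2 (replicate 3 of either genotype, up to 0.0569).

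The motif letters did not separate the risen genes from the others: 6 of the 12 genes with GAS or ISRE letters upstream rose with TMM scaling, and 5 of the 11 genes without. Some windows lay wholly in annotated exons: those of Irgm1 and Psmb8, with letters, and of Psmb9, Tap1, Tapbp and Erap1, without. The risen genes Gbp8, Gbp9 and Tap2 had no window, so the comparison is limited. Of the 4 genes with the same arrangement, Igtp and Tgtp2 were called while Irgm2 and Tgtp1 were not, a difference between genes that was not tested.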

How the data were processed

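RNA was sequenced from paired-end libraries of sorted cardiac macrophages, 3 Tet2 KO and 3 Tet2 WT. The submitters' processing notes name Trim Galore 0.6.4, kallisto 0.44.0 and the build GRCm38. Per the file headers, the authors deposited an estimated count and a TPM value for each transcript. The counts are not normalized, and kallisto splits ambiguous reads among transcripts by estimation. The annotation release, the strand setting and the sort gate are not given in the sources used here. From 118783 transcripts, 116622 matched GENCODE M21 by identifier without version, and the 2161 others held at most 0.671% of a library's counts.

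Estimated counts and TPM were summed per gene, and counts were rounded. Genes kept by edgeR's expression filter (16386) were TMM-scaled and tested with edgeR 4.0.16 (robust quasi-likelihood, R 4.3.3), fitting genotype alone and adjusting p by Benjamini-Hochberg across every tested gene. A second fit scaled each library to the geometric mean of Adgre1 and Csf1r. SEs are the fold change over the root of F. Proteasome ratios were compared by an exact permutation test. Shared 31-base stretches were counted over the GENCODE transcripts, and promoter windows came from RefSeq. The code was tested on simulated data. Counts of every pair of libraries differed by more than sampling noise.

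The 31 genes and the other lists were chosen with earlier results of these data known. The text names all 31, Adgre1, Csf1r, Tet2, Ifng and Psmb5 to Psmb7 whatever their values, and up to 4 called members of each context list by smallest p. A gene of these lists and a marker are not reported here. The markers Tek, Cd79b and Csf3r and the ratio of Igtp to Irgm2 were chosen after their values were seen. Alternatives were RLE scaling, no low-count filter, a filter of 1 CPM in 3 libraries, the replicate number as a block, each library left out, limma 3.58.1 (voom, and log2 of TPM plus 1 or 0.1), DESeq2 1.42.0, and either reference gene alone. A fibroblast covariate and leaving out both libraries numbered 1 were added after seeing the data.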

Additional observations from a re-analysis of the deposited data

How the results depend on the processing

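Of the 31 genes, edgeR called 14. The count was 14 with RLE scaling, a filter of 1 CPM in 3 libraries or limma voom, 16 with DESeq2 and 13 with no low-count filter. It was 9 with limma on log2(TPM + 1), 9 on log2(TPM + 0.1), 7 without both libraries numbered 1, 0 with the fibroblast covariate, and 9 to 14 without 1 library. Over all genes, 2653 were called, 1188 without both libraries numbered 1, 0 with the fibroblast covariate and 1382 (without Tet2 WT replicate 1) to 3141 without 1 library. The share of calls that were higher fell from 1001 of 2653 to 384 of 2314 and 400 of 2322 with limma on TPM, to 177 of 1188 without both libraries numbered 1, to 428 of 1750 without Tet2 KO replicate 3 and to 350 of 1382 without Tet2 WT replicate 1. Scaled to Adgre1 and Csf1r, 8211 genes and 5 of the 31 were called, with 4545 to 8669 genes and 2 to 8 of the 31 without 1 library, and 5 of the 31 with either reference alone. The cause of these shifts was not tested.

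The sign of the TMM log2 fold change turned only for genes that were not called. With the fibroblast covariate it was -0.52 for Socs1, -0.02 for Irf1, -1.35 for Gbp5, -0.0456 for Psmb10, 0.326 for Erap1, -0.772 for Nlrc5, -0.0904 for Nos2 and -0.36 for Tet2. On log2(TPM + 0.1) and log2(TPM + 1) it was -0.101 and -0.1 for Jak1, -0.0906 and -0.0758 for Socs1, -0.00296 and -0.00452 for Gbp2, and -0.0838 and -0.0612 for Gbp5. Without both libraries numbered 1, Erap1 was at 0.00742. Without 1 library, the range was -0.105 to 0.18 for Socs1, -0.0949 to 0.409 for Gbp2, -0.1 to 0.448 for Gbp5, -0.0563 to 0.398 for Gbp6 and -0.16 to 0.0506 for Erap1. The cause was not tested.

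The labels number the libraries of both genotypes, but do not say that a number pairs them, and deviations of same-numbered libraries correlated at 0.0602, 0.129 and 0.0422, so they were not treated as pairs. Each library correlated best with its own number, which is a hint from the data only. With the replicate number as a block, edgeR called 2347 genes and 12 of the 31, without Gbp8 and Psme1 (adjusted p = 0.0715 and 0.0698). With 3 libraries a group, differences of the size seen for Irf1, Psmb10 or Nlrc5 lay near the threshold, and leaving a library out also lowers the number of samples.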

Other observations

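The transcript models behind some gene sums were uneven, and these genes were chosen after their values were seen. For Tap2, the 1 transcript annotated as retaining an intron held 71.1%, 75.9% and 75.7% of the gene's TPM in Tet2 KO and 74.2%, 72.0% and 75.9% in Tet2 WT, so most of the rise in Tap2 on the gene level is counted on a model that is not annotated as coding. The share did not separate the genotypes. Of the other risen genes, Ifngr2 had 53.65% to 61.7% of its TPM over the 6 libraries on a transcript annotated for nonsense-mediated decay, but 12.04% of its counts. Gbp9 had 16.5% to 44.1% of its TPM and 40.75% of its counts on a transcript annotated as retaining an intron. Psmb8, also risen, had 31.5% to 35.7% of its TPM on such transcripts, and Psmb10, not called, 37.7% to 47.25%. The TPM ratios of Psmb8 to Psmb5 and of Psmb10 to Psmb7 given above include these models. For Gbp5, 2 transcripts annotated for nonsense-mediated decay held 41.5% to 60.4% of TPM over the 6 libraries, and for Gbp4 a single such transcript held 61.0%, 68.9% and 61.4% in Tet2 KO and 69.4%, 74.0% and 71.0% in Tet2 WT, lower in every Tet2 KO library.

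Of 17 genes with a transcript annotated as retaining an intron, 3 had shares of TPM that did not overlap between the groups. How often such shares separate the groups over all genes was not counted. The 3 genes are therefore described here without a conclusion about the list. The values below are the share of TPM on such transcripts. For Gbp8, which rose with TMM scaling, it was 9.96%, 7.34% and 5.89% in Tet2 KO against 12.4%, 25.2% and 19.6% in Tet2 WT. For Erap1, which was not called, it was 20.1%, 15.6% and 14.6% against 10.2%, 7.23% and 13.8%. For Tapbp, not called either, it was 1.65%, 1.496% and 1.75% against 0.888%, 1.26% and 1.305%. No test was run on these shares, and kallisto's division of reads among overlapping models sets them in part.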
